A study of Mus musculus with 4 samples.

Results

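RNA of mouse embryonic stem cells, the pluripotent cells of the early embryo kept in culture, was sequenced in 4 libraries to compare cells lacking ZFP57 with wild-type cells. The genes described here are the Kcnq1ot1 imprinted domain of distal chromosome 7, 10 genes taken by symbol (Kcnq1ot1, Kcnq1, Cdkn1c, Phlda2, Slc22a18, Ascl2, Cd81, Tssc4, Nap1l4 and Osbpl5) from the 26130 genes of the deposited tables. All 10 symbols occurred once in each table. The groups were wild-type E14 cells (strain 129P2/OlaHsd), E14 cells of genotype Zfp57-/-, wild-type JB1 cells (strain JF1/B6) and JB1 cells of genotype Zfp57-/-, with 1 library each. All were grown without feeder cells on gelatin in medium with serum and leukemia inhibitory factor. The labels do not say how Zfp57 was disrupted, from how many clones the knockout cells came, or which parent gave which JB1 chromosome. The values sum both parental copies, so expression from the single copies was not analysed here.

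Imprinted genes are expressed from 1 parental copy only. In this domain the control region is methylated on the maternal chromosome and holds the promoter of Kcnq1ot1, a long noncoding RNA that is made from the paternal chromosome, antisense to Kcnq1. Kcnq1ot1 silences neighbouring genes on the chromosome that makes it, with Polycomb complexes and the histone methyltransferase G9a. A core group of genes, Kcnq1, Cdkn1c, Phlda2 and Slc22a18, is imprinted in the embryo and placenta, while outer genes such as Ascl2, Cd81, Tssc4 and Osbpl5 are imprinted mainly in the placenta. ZFP57 is a zinc finger protein that binds the methylated copy of imprinting control regions and recruits KAP1 (Trim28), which keeps that copy methylated.

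The promoter of Kcnq1ot1 is shown first because it lies in the control region, and those of Phlda2 and Cd81 because these genes had the most negative difference of the domain, on the log2 scale used below, in E14 and in JB1. The sequences are the 250 bases before the start of each gene, 5′ to 3′ on the gene's strand, from RefSeq (GRCm38.p6). Capitals mark TGCCGC, the letters that ZFP57 recognizes when their CpG is methylated, CCAAT, the core of sites bound by the factor NF-Y, and TATAAA, the TATA box, each searched on both strands. The windows are chr7:143296548-143296797 (minus strand) for Kcnq1ot1, chr7:143502525-143502774 (minus strand) for Phlda2 and chr7:143052500-143052749 (plus strand) for Cd81.
Kcnq1ot1: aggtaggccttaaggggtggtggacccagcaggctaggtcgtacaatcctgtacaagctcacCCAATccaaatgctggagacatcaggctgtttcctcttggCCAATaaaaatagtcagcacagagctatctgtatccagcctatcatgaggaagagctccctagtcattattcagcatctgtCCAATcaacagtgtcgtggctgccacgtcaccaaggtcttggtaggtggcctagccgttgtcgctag
Phlda2: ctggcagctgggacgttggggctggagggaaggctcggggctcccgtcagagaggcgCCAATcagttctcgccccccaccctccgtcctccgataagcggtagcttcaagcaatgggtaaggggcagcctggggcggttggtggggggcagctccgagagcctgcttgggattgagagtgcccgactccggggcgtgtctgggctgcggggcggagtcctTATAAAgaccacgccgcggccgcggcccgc
Cd81: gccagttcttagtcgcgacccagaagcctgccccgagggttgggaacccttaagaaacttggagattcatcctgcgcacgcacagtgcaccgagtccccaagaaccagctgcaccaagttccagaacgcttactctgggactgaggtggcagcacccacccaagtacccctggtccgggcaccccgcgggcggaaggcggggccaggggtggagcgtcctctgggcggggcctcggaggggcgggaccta

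The Kcnq1ot1 window held 3 copies of CCAAT, no TGCCGC and 5 CpG dinucleotides, against a median of 6 CpG over all 32851 RefSeq windows of this length. The rest of the control region, outside these 250 bases before the start, was not searched. These counts therefore do not describe the control region as a whole. At least 3 copies of CCAAT were present in 2.79% of all windows and at least 1 copy in 33.8%. Phlda2 held 1 CCAAT, 1 TATAAA and 21 CpG, and Cd81 held none of these motifs and 16 CpG. TATAAA occurred in 12.4% of all windows. RefSeq windows matched 7 of the 10 genes (Kcnq1ot1, Phlda2, Slc22a18, Ascl2, Cd81, Tssc4 and Osbpl5). Ascl2 also held 3 copies of CCAAT, and TGCCGC, found in 8.68% of all windows, occurred in 1 of the 3 windows of Osbpl5 alone among them. No 2 matches in the windows of these genes overlapped. A match is a string of letters in a window and does not show that a factor binds there.

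Zfp57 RNA, read beside the knockout labels, was 135 RPM (reads scaled to a library total of 1e6) in wild-type E14 and 51.8 RPM in its knockout. In JB1 it was 796 and 42.9 RPM. Zfp57 RNA in the knockout library was thus 0.384 of wild type in E14 and 0.0539 in JB1. These RNA levels do not show whether ZFP57 protein was absent. The library totals were 50478922 to 96996280 reads, so 1 RPM was 50.5 to 97.0 reads and a count of 0 allowed 0.0309 to 0.0594 RPM (3 reads). The 8 embryonic stem cell markers summed to 3440 RPM in wild-type E14 and 3125 RPM in its knockout, and to 4960 and 3998 RPM in JB1, where Klf4 was at least 2-fold lower (409.6 and 164 RPM). Of the 8 stem cell markers, 7 were lower in the E14 knockout and 6 in the JB1 knockout. Of 11 trophoblast markers 10 were in the tables. They summed to 9.31 RPM in wild-type E14 and 12.4 RPM in its knockout, and to 22.3 and 35.6 RPM in JB1. The placental genes Tpbpa and Prl3d1 had 0 reads in all 4 libraries. Krt8 was past 2-fold in the JB1 pair (5.79 RPM in wild type, 13.96 in the knockout). Below 1 RPM in both JB1 libraries, Cdx2 (0.116 and 0.402), Elf5 (0.332 and 0.598), Hand1 (0.217 and 0.784) and Plac1 (0.043 and 0.433) were higher in the knockout. In E14, Elf5 was lower (0.852 and 0.778 RPM), and Cdx2, Hand1 and Plac1 had at most 5 reads in a library. Of 4 trophoblast markers measured in each line, 4 were higher in the E14 knockout and 3 in the JB1 knockout. Primitive endoderm markers (8) summed to 126 and 133 RPM in E14 and to 120 and 146 RPM in JB1, most of it Lama1. Without Lama1 they summed to 9.87 and 7.45 RPM in E14, where 4 of 5 measured markers were lower, and to 36.02 and 45.8 RPM in JB1, where 6 of 7 measured markers, Lama1 included, were higher. Fibroblast markers (8), of which Dcn had 0 reads in every library, summed to 2.496 and 3.10 RPM in the E14 pair and to 9.05 and 19.2 RPM in the JB1 pair, where Pdgfrb was at least 2-fold higher (1.43 and 5.73 RPM). The part of these cell types in the values below was not tested. In bulk RNA, fewer cells of a type and less RNA per cell cannot be told apart.

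No measured member of the domain was 2-fold apart in either line. In E14, 8 of the 10 genes had at least 1 RPM in either library, and 0 of these were at least 2-fold apart on the log2(RPM + 1) scale, where 1.22% of 12276 genes were. In JB1, 9 passed this filter and 0 were 2-fold apart, against 4.08% of 13132 genes. With so few of all genes past this threshold, a count of 0 does not set the members apart. At 1.5-fold on the same scale, a threshold chosen after the data were seen, E14 had 0 members against 6.09% of genes and JB1 had 1, Cd81, against 16.4%. Without the pseudocount, on RPM ratios, 2 members were past 1.5-fold in E14 (Cdkn1c and Phlda2), against 10.6% of genes, and 2 in JB1 (Cd81 and Slc22a18), against 22.4%. The median difference of the measured members (knockout minus wild type, log2 scale) was 0.03 in E14 and −0.03 in JB1, and that of all measured genes was 0.02 and 0.01. In E14, 5 members were higher and 3 lower in the knockout library, between −0.55 and 0.55. In JB1, 3 were higher and 6 lower, between −0.74 and 0.19. Of the measured members, 3 of 8 in E14 and 6 of 9 in JB1 lay between the quartiles of all genes (−0.14 to 0.19 and −0.24 to 0.29).

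**Figure D1:**
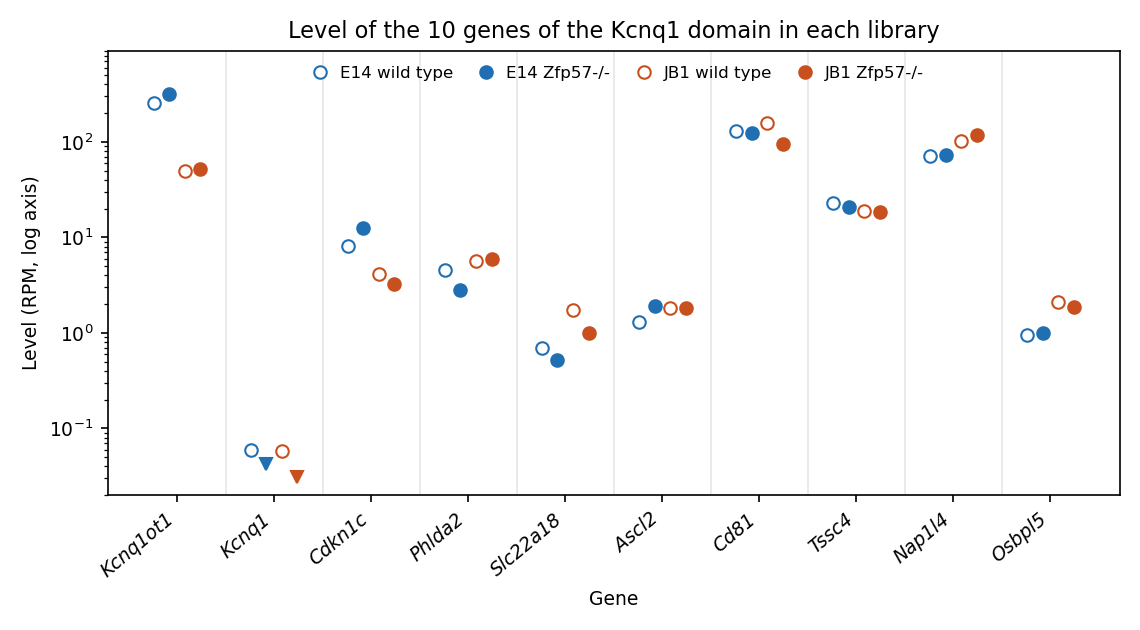
Level (RPM, log axis) of each domain gene in the 4 libraries, with wild type as open and Zfp57-/- as filled circles, E14 in blue and JB1 in orange. Triangles stand at the upper limit for libraries with 0 reads of Kcnq1. Kcnq1ot1 is above 250 RPM in both E14 libraries and near 50 RPM in both JB1 libraries, and Kcnq1 is below 0.06 RPM in all 4.

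Kcnq1ot1 (chromosome 7, 150399016 to 150482452, minus strand, mm9) was 258 RPM in wild-type E14, 315 RPM in the E14 knockout, 49.9 RPM in wild-type JB1 and 51.7 RPM in the JB1 knockout. These were 13031, 22247, 3450 and 5010 reads. In E14 the knockout library was thus 1.22-fold higher, with a 95% counting interval of 1.19 to 1.25, and in JB1 1.04-fold higher, with an interval of 0.992 to 1.08 that includes 1. With 1 library per group these intervals hold counting error only and say nothing of the spread between cultures. On the log2(RPM + 1) scale the differences were 0.28 and 0.05. Over both lines, limma gave a difference of 0.17 ± 0.16 (SE; 95% interval −0.21 to 0.55; adjusted p = 0.766). A 2-fold difference lay outside the counting interval in both lines and above the limma interval. The counting intervals leave out the spread between cultures, and the limma interval rests on 2 lines. Neither decides whether cultures of the genotypes differ 2-fold.

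The lines differed more in Kcnq1ot1 than the genotypes did. Wild-type E14 had 5.18-fold and the E14 knockout 6.09-fold the RPM of the matching JB1 library, and the values of the lines did not overlap. The lines were also separate for Cdkn1c, Phlda2, Slc22a18, Tssc4, Nap1l4 and Osbpl5. The share of all genes with such a separation was not counted, so it cannot be read as a trait of the domain. The tables of the lines were deposited separately, each library scaled to its own total. The listed genes held 53.1% and 53.7% of these totals in E14, against 68.6% and 68.9% in JB1. The strains of the lines differ too, and mapping by strain was not tested. The difference of Kcnq1ot1 between the lines was also not tested.

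Kcnq1 (150293159 to 150612955, plus strand), which encodes the pore-forming subunit of a voltage-gated potassium channel of heart and epithelia, was nearly undetected. It had 3 reads in wild-type E14 and 4 in wild-type JB1 (0.0594 and 0.0578 RPM) and 0 reads in both knockout libraries. The counting interval of the JB1 ratio of knockout to wild type ran from 0 to 1.08 and that of E14 from 0 to 1.73, so a difference was not detectable at this depth. Kcnq1 did not pass the filter of 1 RPM in either line. In the GENCODE M21 annotation (GRCm38), Kcnq1ot1 is a single exon that starts between exons 11 and 12 of a Kcnq1 transcript with 16 exons and spans its exon 11, 121 bases long. At the mean read density of Kcnq1ot1 over the span listed in the tables, a stretch of 121 bases would hold 18.9 reads in wild-type E14, 32.3 in the E14 knockout, 5.00 in wild-type JB1 and 7.27 in the JB1 knockout. The reads listed for Kcnq1 were below these numbers in each library, but only narrowly in wild-type JB1 (4 against 5.00). These numbers assume even coverage of Kcnq1ot1. The libraries were made with a stranded kit, but whether the counting used strand is not given in the sources used here.

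Cdkn1c (150644255 to 150646955, minus strand) encodes p57, an inhibitor of cyclin-dependent kinases that restrains growth, and is silenced by Kcnq1ot1 on the paternal chromosome. Its level was 8.22 RPM in wild-type E14 and 12.5 RPM in the knockout, and 4.15 and 3.26 RPM in JB1. The knockout library was higher in E14, 1.53-fold (95% counting interval 1.36 to 1.72), and lower in JB1, 1.27-fold (1.08 to 1.498). Both E14 libraries were above both JB1 libraries. Other members of the domain were separated by line too, and the share of all genes separated in this way was not counted. Over both lines the limma difference was 0.14 ± 0.25 (SE; 95% interval −0.47 to 0.75; adjusted p = 0.889).

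Phlda2 (150687450 to 150688446, minus strand), a small pleckstrin homology domain protein that limits placental growth, differed in E14 alone beyond counting error. It was 4.60 RPM in wild-type E14 and 2.83 RPM in its knockout, a level 1.62-fold lower (95% counting interval 1.34 to 1.97). In JB1 it was 5.62 and 5.93 RPM, a ratio of 1.05 (0.926 to 1.20). The limma difference over both lines was −0.24 ± 0.23 (SE; adjusted p = 0.774), and whether the lines differed was not tested. With a pseudocount of 5 RPM the E14 difference of −0.55 became −0.29.

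Slc22a18 (150659626 to 150685239, plus strand), a transporter-like membrane protein, was low in all libraries. The E14 libraries held 0.693 RPM in wild type and 0.523 RPM in the knockout (35 and 37 reads), and the JB1 libraries 1.73 and 1.00 RPM (120 and 97 reads). The JB1 knockout was 1.73-fold lower (95% counting interval 1.32 to 2.29), and the E14 ratio of 0.755 had an interval of 0.463 to 1.23. Its mean over the 4 libraries was below 1 RPM, so it did not enter the test over both lines. Its JB1 difference of −0.45 on the log2(RPM + 1) scale became −0.17 with a pseudocount of 5 RPM.

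**Figure D2:**
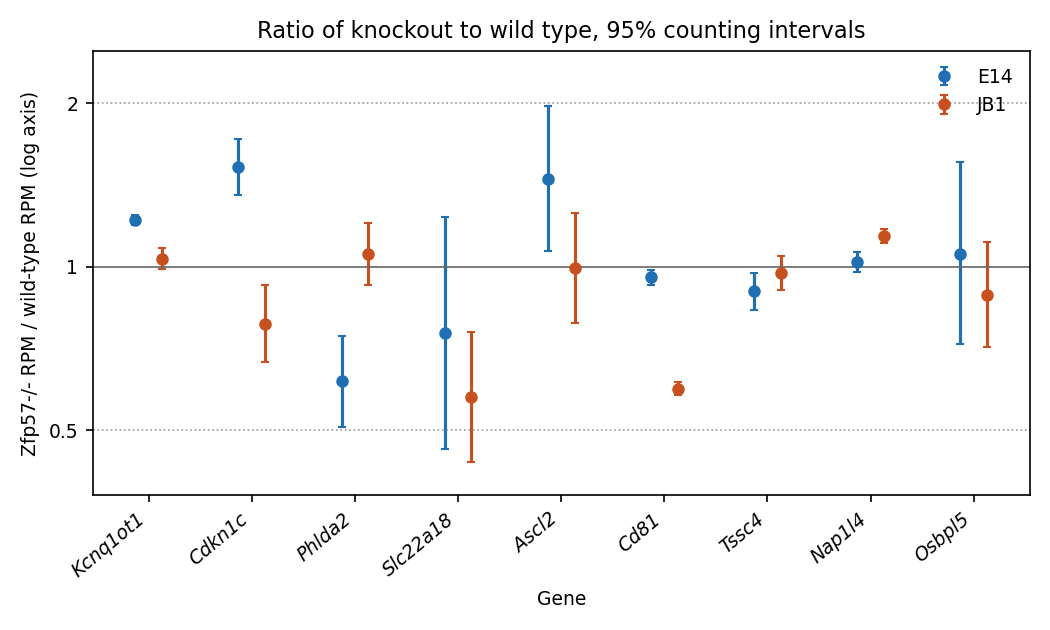
Ratio of Zfp57-/- to wild-type RPM (log axis) for 9 domain genes in E14 (blue) and JB1 (orange), with 95% counting intervals and dotted lines at 2-fold. Cdkn1c lies above 1 in E14 and below 1 in JB1, and Cd81 in JB1 (0.597) has a narrow interval well below 1.

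Among the outer genes, Cd81 (150238644 to 150253839, plus strand), a tetraspanin of the cell surface, had the largest difference of the domain in JB1 on the log2(RPM + 1) scale. It was 158 RPM in wild-type JB1 and 94.4 RPM in the knockout (10953 and 9159 reads), 1.68-fold lower (95% counting interval 1.63 to 1.72). The E14 pair stood at 131 RPM (wild type) and 125 RPM (knockout). That knockout library was 1.04-fold lower (1.01 to 1.08). The JB1 knockout was the lowest of the 4 libraries and wild-type JB1 the highest. Over both lines the limma difference was −0.40 ± 0.20 (SE; 95% interval −0.89 to 0.09; adjusted p = 0.637). The 9 protein-coding members, Cd81 included, summed to 295 RPM in wild-type JB1 and 243 RPM in the JB1 knockout, and to 241 and 238 RPM in the E14 pair. Cd81 alone fell by more than the JB1 sum did. Without Cd81, the other coding members therefore summed to more RPM in the JB1 knockout than in wild-type JB1. The gene R74862, on the opposite strand, overlaps the first 948 bases of Cd81 and was at most 2.999 RPM in any library.

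Ascl2 (150152727 to 150155169, minus strand), a basic helix-loop-helix factor needed for the spongiotrophoblast of the placenta, was 1.31 RPM in wild-type E14 and 1.90 RPM in its knockout, and 1.84 and 1.82 RPM in the JB1 pair. The E14 knockout was 1.45-fold higher, with a wide counting interval (1.07 to 1.98) from 66 and 134 reads, and the JB1 ratio was 0.994 (0.787 to 1.26). Values of the lines overlapped. Osbpl5 (150874667 to 150942890, minus strand), an oxysterol-binding-like lipid transfer protein, was 0.951 RPM in wild-type E14 and 1.00 RPM in its knockout, and 2.11 and 1.88 RPM in the JB1 pair, with counting intervals of the ratio that include 1 in both lines (0.722 to 1.56 and 0.711 to 1.11).

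Nap1l4 (150699484 to 150734997, minus strand), a histone chaperone, and Tssc4 (150255154 to 150256998, plus strand), a splicing-related protein, are widely expressed. Nap1l4 was 71.8 and 73.2 RPM in E14, a ratio of 1.02 (95% counting interval 0.977 to 1.06), and 103 and 117 RPM in JB1, 1.14-fold higher in the knockout (1.11 to 1.17). Tssc4 was 23.1 and 20.8 RPM in E14, 1.11-fold lower (1.03 to 1.20), and 18.7 and 18.3 RPM in JB1, a ratio of 0.975 (0.907 to 1.05). Tssc4 lies wholly inside Trpm5 on the opposite strand, and Trpm5 was at most 0.144 RPM in any library.

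A genotype effect common to E14 and JB1 was sought with limma, which fitted genotype beside cell line to the log2(RPM + 1) values, with Benjamini-Hochberg adjustment over all genes. Of the 8 members tested, 0 passed an adjusted p of 0.05 and 0 had an unadjusted p under 0.05. Over all 12644 genes 0 passed (0.0%), Zfp57 itself included (adjusted p = 0.623), and 1005 (7.95%) had an unadjusted p under 0.05. Adjusted p-values of the members were between 0.637 and 0.974, and these do not show that the members were equal. The lines agreed in direction for 4 of the 8 members, as for 57.7% of all genes tested. Kcnq1ot1 and Nap1l4 were higher in both knockout libraries, and Cd81 and Tssc4 were lower in both. Cdkn1c, Phlda2, Ascl2 and Osbpl5 went opposite ways. Counting intervals excluded a ratio of 1 for 6 of 8 measured members in E14 (3 higher, 3 lower) and for 4 of 9 in JB1 (1 higher, 3 lower). They did so for 58.4% of all measured genes in E14 and 78.2% in JB1, so at these depths such an interval is common.

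Levels of different genes were compared per length, as RPM per kb of transcript, with exon lengths from GENCODE M21 and, for Kcnq1ot1, the 83.4 kb span in the tables. Cd81 (61.6 to 103 RPM per kb), Nap1l4 (30.04 to 48.8) and Tssc4 (12.03 to 15.2) held the top of the order, as listed, in all 4 libraries. Kcnq1ot1 was at 3.09 and 3.77 RPM per kb in E14 and only 0.597 and 0.619 in JB1. In E14 it lay beside Phlda2 (6.07 and 3.74) and Cdkn1c (4.23 and 6.46), and the order of these 3 genes was not the same in both libraries. In JB1, Phlda2 (7.43 and 7.83) stood above Cdkn1c (2.14 and 1.68), and Kcnq1ot1 lay beside Slc22a18 (1.04 and 0.601), and which of them was higher in the knockout library depended on the length taken for Kcnq1ot1. With its GENCODE M21 length of 93.1 kb in place of the span in the tables, Kcnq1ot1 was at 2.77 and 3.38 RPM per kb in E14, the knockout value then below that of Phlda2, and at 0.536 and 0.555 in JB1, the knockout value then below that of Slc22a18. Osbpl5 (0.234 to 0.519) was ninth and Kcnq1 last in each library.

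**Figure D3:**
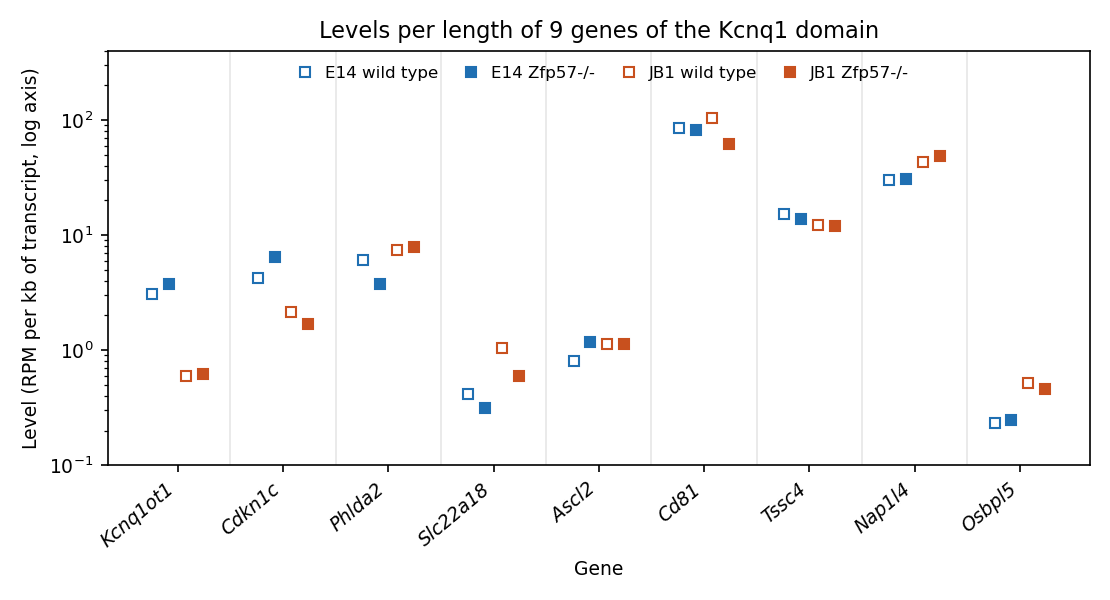
Level per length (RPM per kb of transcript, log axis) of 9 domain genes in the 4 libraries, with wild type as open and Zfp57-/- as filled squares, E14 in blue and JB1 in orange. Cd81, Nap1l4 and Tssc4 hold the top of the order, and Kcnq1ot1 is at 3.09 and 3.77 in E14 but about 0.6 in JB1.

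The other genes of the region were described by position. Of 9 further genes between the first and the last member, 5 were measured in each line and 0 were 2-fold apart, with medians of 0.15 in E14 and 0.30 in JB1. Within 1 Mb on either side, 11 of 41 genes were measured in E14 and 0 were 2-fold apart (median −0.05), and 13 were measured in JB1 and 2 were at least 2-fold higher (median 0.07). These were H19, a noncoding RNA under a separate imprinting control region (53.5 and 186 RPM in JB1, 3.48-fold higher, 95% counting interval 3.36 to 3.61; 9.91 and 19.7 RPM in E14), and Dhcr7, which encodes an enzyme of cholesterol synthesis. Dhcr7 was 7.36 and 22.1 RPM in JB1, 3.002-fold higher (2.72 to 3.31), and 2.44 and 2.09 RPM in E14. Both lie outside the span of the domain members, on opposite sides. A list of 12 other genes of this imprinted region, which shares genes with both positional groups, had 8 measured members, 3 higher and 5 lower in E14 (median −0.08) and 6 higher and 2 lower in JB1 (median 0.36). Of these 8 genes, 0 passed limma's test over both lines.

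**Figure D4:**
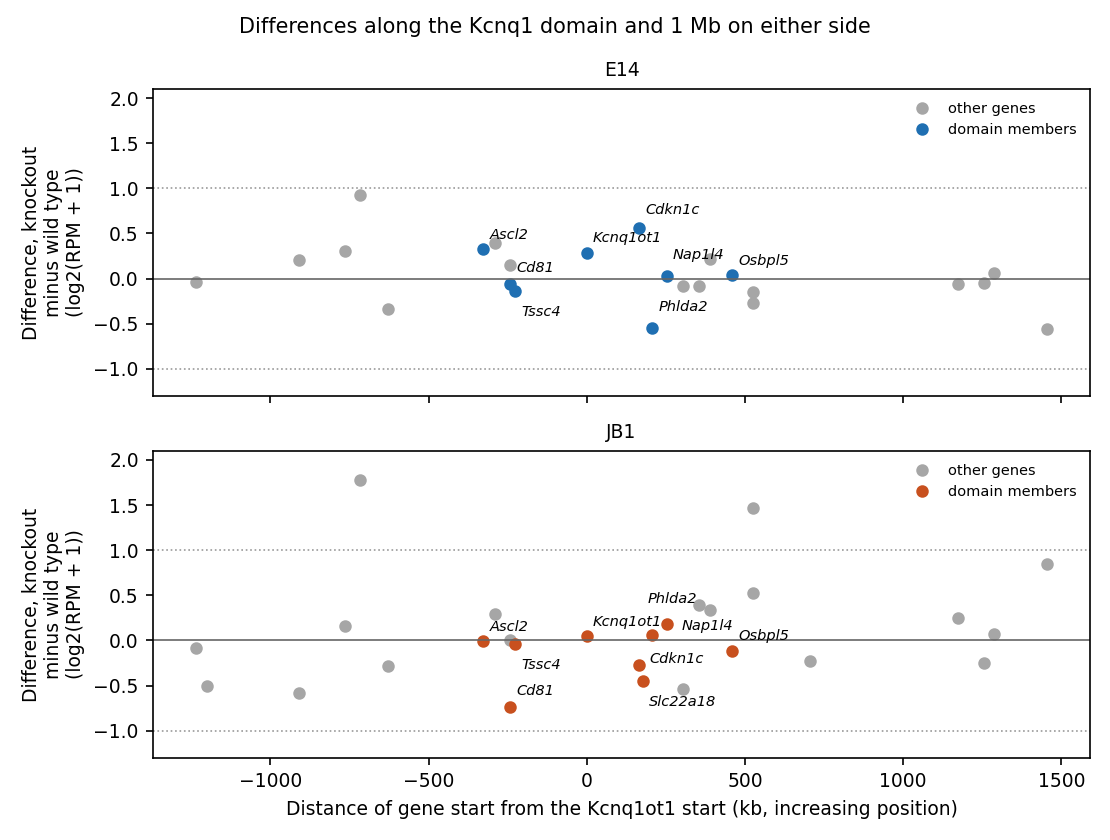
Difference between knockout and wild type (log2(RPM + 1)) of measured genes against the distance of their start from the Kcnq1ot1 start (kb), for E14 (upper panel) and JB1 (lower panel), with domain members in colour, other genes in grey and dotted lines at 2-fold. No domain member reaches the dotted lines, while H19 (1.78) and Dhcr7 (1.47), in grey, lie above the upper line in JB1.

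Genes that act with Kcnq1ot1 and its control region (21 genes for KAP1, DNA methylation, Polycomb and G9a) were all measured in both lines. In E14, 12 were higher and 9 lower (median 0.01), and the gene at least 2-fold lower was Zfp57 itself. In JB1, 10 were higher and 11 lower (median −0.00). There Dnmt3a and Dnmt3b, which add new DNA methylation, were at least 2-fold higher, Dnmt3a at 19.9 and 84.9 RPM and Dnmt3b at 61.4 and 145 RPM, and Zfp57 was at least 2-fold lower. The E14 values were 24.9 and 27.6 RPM for Dnmt3a and 47.7 and 67.2 RPM for Dnmt3b. Of the 21 genes, 0 passed limma's test over both lines.

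Paralogs and partners of the coding members numbered 23. In E14, 15 of 18 measured genes were higher and 3 lower (median 0.21), with 0 at least 2-fold apart. Over all measured genes, 53.5% were higher in the E14 knockout and 51.5% in the JB1 knockout. In JB1, 9 of 20 were higher and 11 lower (median −0.10), and the cyclins Ccne1 (33.6 and 97.7 RPM) and Ccnd3 (82.8 and 273 RPM), which activate kinases that p57 inhibits, were at least 2-fold higher. Of 19 genes tested, 0 passed limma's test over both lines. The other inhibitors of the p57 family, named here for that kinship, were Cdkn1a (p21), at 25.02 RPM in wild-type and 36.9 RPM in knockout E14 and 63.2 and 31.6 RPM in JB1, and Cdkn1b (p27), at 67.8 and 53.03 RPM and 50.8 and 32.7 RPM. Like Cdkn1c, Cdkn1a was higher in the E14 knockout and lower in the JB1 knockout, whereas Cdkn1b was lower in both knockout libraries. Kcne1, Kcne2 and Kcne3, accessory subunits of the KCNQ1 channel, were at most 0.0722 RPM in any library.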

How the data were processed

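Each line has 1 deposited table of log2 RPM per gene, a scale read from the values themselves. The submitters' processing notes name TopHat2 2.0.8b, CASAVA 1.8.2 and cutadapt, and the build mm9. How reads were counted, with which annotation and strand setting, is not stated in the labels. In each column, 0.9 × 2 to the power of (value − lowest value) gave a whole number (relative tolerance 1e-04) for 100% of the genes with a higher value, so whole reads were recovered and the lowest value was set to 0 reads. The listed genes held 53.1%, 53.7%, 68.6% and 68.9% of the library totals (E14 wild type and knockout, JB1 wild type and knockout), 26801865 to 66849394 reads.

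Ratios are of RPM, with 95% intervals from an exact binomial interval (Clopper-Pearson, scipy 1.17.1) of the reads. These cover counting error only, and reads without molecular identifiers need not be separate molecules. Differences are log2((knockout RPM + 1)/(wild-type RPM + 1)), which understates changes of low genes, over genes that reached 1 RPM in wild type or knockout. With 1 library per group no test was made within a line. The effect over both lines was tested with limma 3.58.1 (R 4.3.3), with terms for cell line and genotype and eBayes with trend. Genes averaging 1 RPM or more entered, with 1 residual and 5.28 prior degrees of freedom. The fit was also run on simulated data with the same changes in both lines, which does not give its power where lines differ. The p-values of limma rest on the spread between the 2 lines, the only repeats of the genotype, pooled over genes by eBayes. With 5.28 prior against 1 residual degree of freedom, the spread of other genes weighs more than a gene's own. The design had foreseen a count model had the tables held counts.

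Alternatives were pseudocounts of 0.25 and 5 RPM, no filter or 5 RPM, rescaling to the listed genes, centring on the median and eBayes without trend. The members and gene lists were chosen with earlier results of these data known. All members were named; of other genes, those of the lists at least 2-fold apart on the log2 scale, those overlapping a member and the 3 with patterns nearest to Kcnq1ot1 and to Cdkn1c. Outside this rule, Cdkn1a, Cdkn1b and Kcne1 to Kcne3 were named for their kinship or partnership with members. Tpbpa, Prl3d1, Cdx2, Elf5, Hand1, Plac1, Dcn and Lama1 were named as markers. All of these were named after their values were seen. Tfap2c was not found by symbol. Positions of table genes are mm9; promoter windows (RefSeq) and exons (GENCODE M21) are GRCm38. No position was converted between builds, but GRCm38 exon lengths were set against reads counted on mm9, also in the comparison of Kcnq1ot1 and Kcnq1 exon 11.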

Additional observations from a re-analysis of the deposited data

Results flagged for a closer look

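Cdkn1c went opposite ways in the lines. Its ratio of knockout to wild-type RPM was 1.53 in E14 and 0.786 in JB1, and the counting intervals of both ratios exclude 1. Such intervals excluded 1 for 58.4% of all measured genes in E14 and 78.2% in JB1. The lines agreed in direction for only 57.7% of all genes tested. Cdkn1a showed the same pattern, and the share of all genes that did was not counted. With 1 library per line and genotype the difference of Cdkn1c between the lines was not tested.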

How the results depend on the processing

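The count of members at least 2-fold apart was 0 in both lines with pseudocounts of 0.25 and 5 RPM, without a filter, with a filter of 5 RPM, after rescaling to the listed genes and after centring on the median. Thresholds of 1.5-fold were added after the data were seen. On the log2(RPM + 1) scale the JB1 count was then 1 (Cd81) and the E14 count 0, and on RPM ratios without a pseudocount it was 2 in JB1 (Cd81 and Slc22a18) and 2 in E14 (Cdkn1c and Phlda2), so the count at 1.5-fold depends on the pseudocount. The test over both lines called 0 members and 0 genes in all under each of its 6 alternatives. Of 80 values of single members under 4 alternatives, 0 changed sign, 71 stayed within the counting interval of the main value and 9 moved beyond it, all of Kcnq1, Phlda2 (E14) or Slc22a18 (JB1). Rescaling moved the median of all genes from 0.02 to 0.01 in E14. Depth limits Kcnq1, Slc22a18, Osbpl5 and Ascl2, with at most 182 reads in a library. No paired analysis by replicate number was possible because each group has 1 library.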

Other observations

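The genes whose levels over the 4 libraries were most like those of Kcnq1ot1 were Tmem64, Gm8759 and Gm10036, by the Euclidean distance of log2(RPM + 1) values centred on each gene's mean, among 12643 genes. Their distances were 0.15, 0.23 and 0.25, and 1 gene lay within 0.2. Tmem64, a membrane protein gene on chromosome 4, was 103 and 138 RPM in wild-type and knockout E14 and 19.7 and 19.03 RPM in JB1. For Cdkn1c the nearest were Nxf3 (0.10; 3.09 and 4.68 RPM in E14, 1.36 and 0.825 RPM in JB1), Lrrc48 (0.15) and Rnf125 (0.20). With 4 libraries this likeness is a description and rests mainly on the difference between the lines.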
